A study of Mus musculus with 8 samples.

Results

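The interferon and antigen presentation genes described here are 9 genes chosen by name: *Irf7*, *Irf9*, *Isg15*, *Ifit1*, *Ifit3*, *Bst2*, *B2m*, *H2-K1* and *H2-D1*. They are 9 of the 50686 genes of a table of raw read counts and 9 of the 16018 genes with enough reads to be tested. RNA of ventral hippocampus was sequenced in 8 mice, males of 8 weeks of the strain C57BL/6J (spelt C57B6/J in the labels), with 1 library per mouse. Mice 1 to 4 received a single injection of vehicle and mice 5 to 8 a single injection of corticosterone, the main glucocorticoid of the mouse, at 3 mg/kg, and all were killed 3 h later. The labels name no transgene or mutation. The comparison asks how these genes stand in whole tissue 3 h after corticosterone.

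Interferons are secreted proteins that signal through cell surface receptors, Janus kinases and STAT proteins, and the resulting transcription factors bind interferon-stimulated response elements, or ISREs, in the promoters of many genes. Major histocompatibility complex (MHC) class I molecules present peptides from inside a cell to CD8+ T cells and are among the products that interferons raise. Glucocorticoids act through a receptor that binds DNA at glucocorticoid response elements and are widely used to restrain immune responses. In the brain, microglia and vascular cells are known for higher class I and interferon responsive transcript levels than most neurons.

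In whole tissue, fewer cells of a type and less RNA per cell cannot be told apart. None of the 9 genes was called higher or lower after corticosterone. None of them passed an adjusted p value of 0.05 in edgeR's quasi-likelihood test with Benjamini-Hochberg adjustment over all genes, and 0 of the 9 had an unadjusted p value under 0.05 or groups of mice that did not overlap. DESeq2 and limma-voom also called 0 of the 9. Among all genes tested these shares were 0.00624% at the adjusted threshold, 9.03% at the unadjusted one and 3.66% for groups that did not overlap, and DESeq2 called 0.374%. By direction, 4.51% of all genes were higher and 4.52% lower at the unadjusted threshold, and 1.99% were higher and 1.68% lower with no overlap. The low count for the members is thus read against a comparison in which 1 gene of 16018 passed in edgeR.

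Libraries held 17492159 to 19931987 reads on genes. *Fkbp5*, a classic glucocorticoid target used as a check of the treatment, averaged 102 ± 15.7 CPM (reads per 1000000 reads of the normalized library; SD, n = 4) in vehicle mice and 173 ± 8.31 in corticosterone mice. Its log2 fold change was 0.76 (SE 0.097, edgeR adjusted p value 0.0481, DESeq2 adjusted p value 1.46e-08). It was the 1 gene that edgeR called over 8 mice. That call was lost with a minimum of 10 reads per library, and whenever leaving out 1 library left 0 genes called. The 16 markers of hippocampal neurons were all tested and summed to 7204 to 8141 CPM in vehicle mice and 7300 to 7663 CPM in corticosterone mice. The library of corticosterone mouse 5 stood apart from the other 3 of its group. On the first principal component, which held 33.7% of the variance, it lay at -19.2, among vehicle mice 1 to 3 (-24.8 to -8.33), while vehicle mouse 4 lay at 5.11 and corticosterone mice 6 to 8 at 18.9 to 23.5. Its share of reads that fell on more than 1 gene was 1.48%, against 1.25% to 1.28% in mice 6 to 8 and 1.40% to 1.67% in vehicle mice. By 2 other measures it lay outside the vehicle range, on the side of mice 6 to 8. Its *Fkbp5* was 166 CPM, where mice 6 to 8 were at 166 to 183 and vehicle mice at 89.2 to 124, and its share of reads aligned at more than 1 place was 0.0536%, against 0.0420% to 0.0443% in mice 6 to 8 and 0.0699% to 0.111% in vehicle mice. For some results the values without it are also given. Mouse 5 was picked out from these same data, as a corticosterone mouse lying among vehicle mice. Leaving it out can widen the difference between the groups, so counts and p values without it are no separate evidence. Without it edgeR called 10.2% of the 16181 genes then tested (6.47% lower, 3.73% higher) and 0 of the 9.

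The promoters of the 9 genes were read from RefSeq (GRCm38.p6), as windows from 250 bases before to 50 bases after each annotated start, and all 9 genes were matched, in 11 windows. The ISRE core was searched on both strands as GAAA, any 2 bases and GAAA. It was found in *Isg15*, *Ifit1*, *Ifit3*, *Bst2* and *B2m*, and these letters were not in the windows of *Irf7*, *Irf9*, *H2-K1* or *H2-D1*. Of 32851 promoter windows of the same length, 3.44% held it. The core of the glucocorticoid response element, ACANNNTGT, was in 0 of the 11 windows and in 6.85% of all windows. The gamma-activated site TTCNNNGAA was in the window of *Bst2* only among the members, and in 8.30% of all windows. A match is a description of the letters and not of binding. Only these exact patterns were searched, so a window without a match may still hold a variant of the element.

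The following windows are shown because *Isg15* and *Ifit1* are compared with *Irf7* below and the other 3 encode the class I molecule. Capitals mark the ISRE core in *Isg15*, *Ifit1* and *B2m*, and the longest run shared by *H2-K1* and *H2-D1* in those. All are written 5′ to 3′ on the strand of the gene.
Isg15, chr4:156200769-156201068, minus strand: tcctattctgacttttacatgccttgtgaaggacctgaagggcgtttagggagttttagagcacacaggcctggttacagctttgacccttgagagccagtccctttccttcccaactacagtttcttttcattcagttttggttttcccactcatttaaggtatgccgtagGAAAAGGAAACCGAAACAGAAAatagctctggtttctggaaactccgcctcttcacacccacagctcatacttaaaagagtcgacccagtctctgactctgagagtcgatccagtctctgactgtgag
Ifit1, chr19:34640639-34640938, plus strand: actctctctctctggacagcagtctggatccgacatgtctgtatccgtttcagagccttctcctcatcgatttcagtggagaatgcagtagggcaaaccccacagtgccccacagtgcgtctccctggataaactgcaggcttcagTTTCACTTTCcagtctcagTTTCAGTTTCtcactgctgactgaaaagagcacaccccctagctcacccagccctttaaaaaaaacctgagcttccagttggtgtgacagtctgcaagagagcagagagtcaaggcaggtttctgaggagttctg
B2m, chr2:122147437-122147736, plus strand: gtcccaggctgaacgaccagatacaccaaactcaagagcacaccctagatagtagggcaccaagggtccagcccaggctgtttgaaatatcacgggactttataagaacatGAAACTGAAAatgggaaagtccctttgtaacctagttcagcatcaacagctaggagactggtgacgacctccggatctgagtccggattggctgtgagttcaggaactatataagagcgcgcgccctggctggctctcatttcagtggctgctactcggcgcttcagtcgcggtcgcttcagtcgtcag
H2-K1, chr17:34000298-34000597, minus strand: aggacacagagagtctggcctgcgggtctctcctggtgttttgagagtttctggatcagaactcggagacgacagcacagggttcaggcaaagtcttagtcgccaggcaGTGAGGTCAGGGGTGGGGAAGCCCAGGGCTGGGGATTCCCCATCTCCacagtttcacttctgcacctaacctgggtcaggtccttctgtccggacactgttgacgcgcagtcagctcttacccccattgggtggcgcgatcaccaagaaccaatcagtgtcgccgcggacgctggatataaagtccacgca
H2-D1, chr17:35262844-35263143, plus strand: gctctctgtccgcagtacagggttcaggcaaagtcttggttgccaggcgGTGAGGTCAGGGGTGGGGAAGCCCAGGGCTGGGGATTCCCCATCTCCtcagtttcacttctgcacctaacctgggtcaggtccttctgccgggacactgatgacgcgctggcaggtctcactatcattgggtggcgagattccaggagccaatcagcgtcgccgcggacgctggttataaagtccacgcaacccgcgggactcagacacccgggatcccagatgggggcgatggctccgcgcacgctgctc

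In *Isg15* there were 3 overlapping ISRE cores between 78 and 57 bases before the start. *Ifit1* held 2 separate cores, at 104 to 95 and at 85 to 76 bases before the start, both read on the opposite strand. *Ifit3* held 2 in the same orientation, at 156 to 147 and 122 to 113 bases before its start. *Bst2* held 2 overlapping cores between 130 and 115 bases before the start. The single core of *B2m* lay 139 to 130 bases before the start. The windows of *H2-K1* and *H2-D1* shared an unbroken run of 47 bases, at 141 to 95 bases before the start of *H2-K1* and 201 to 155 before that of *H2-D1*. No window of a gene other than these 2 held that run, and 73.3% of the 240 bases that overlap when that run is aligned without gaps were identical.

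*Irf7* and *Irf9* encode transcription factors of the interferon response. IRF9 is the DNA-binding subunit of a complex that binds ISREs, and IRF7 drives type I interferon genes and is itself induced by interferon. *Irf7* (ENSMUSG00000025498) lies at chr7:141262706-141266481 on the minus strand of GRCm38 in the GENCODE M21 annotation, and 45 bases of its exons overlap *Phrf1* on the opposite strand. *Irf7* was low, with 21 to 36 reads per library. It measured 1.79, 1.84, 1.69 and 1.13 CPM in vehicle mice 1 to 4 and 1.48, 2.04, 1.15 and 1.63 CPM in corticosterone mice 5 to 8. The groups overlapped throughout, with the lowest values in vehicle mouse 4 and corticosterone mouse 7 and the highest in corticosterone mouse 6. The means were 1.61 ± 0.326 and 1.57 ± 0.368 CPM (SD, n = 4 each), and the log2 fold change was -0.04 (SE 0.245, edgeR adjusted p value 0.959).

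*Irf9* (ENSMUSG00000002325, chr14:55603571-55610030, plus strand) shares 123 exon bases with *Rnf31* on the same strand, and reads there cannot be told apart. *Irf9* measured 6.20, 9.72, 8.73 and 8.45 CPM in vehicle mice and 8.45, 7.08, 8.18 and 7.43 CPM in corticosterone mice. Both the lowest and the highest value of *Irf9* were in vehicle mice, so that its coefficient of variation was 17.9% in vehicle and 8.19% in corticosterone mice. The log2 fold change was -0.09 (SE 0.143, edgeR adjusted p value 0.820).

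*Isg15*, *Ifit1*, *Ifit3* and *Bst2* encode effectors of the interferon response. ISG15 is a ubiquitin-like protein that is joined to other proteins, the IFIT proteins bind RNA (IFIT1 recognises the 5′ end of viral RNA), and BST2, or tetherin, holds enveloped virus particles at the cell surface. *Isg15* (ENSMUSG00000035692, chr4:156199424-156200818, minus strand) had the fewest reads of the 9 genes, 9 to 17 per library. It measured 0.769, 0.767, 0.613 and 0.464 CPM in vehicle mice and 0.763, 0.906, 0.659 and 0.865 CPM in corticosterone mice. Corticosterone mice 6 and 8 were above every vehicle mouse, and mice 5 and 7 were not. The log2 fold change of *Isg15* was 0.29 (SE 0.287, edgeR adjusted p value 0.709).

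*Ifit1* (ENSMUSG00000034459, chr19:34640871-34650009, plus strand) had 12 to 30 reads per library. It measured 1.54, 1.28, 1.43 and 0.979 CPM in vehicle mice and 0.814, 1.25, 0.659 and 1.12 CPM in corticosterone mice. The lowest values of *Ifit1* were in corticosterone mice 5 and 7, while mice 6 and 8 lay within the vehicle range. With a log2 fold change of -0.44 (SE 0.272, edgeR adjusted p value 0.583) it had the largest difference in size of the 9 genes over all 8 mice, and it was not past the test. Without mouse 5 the estimate of *H2-K1* was slightly larger in size (-0.377, against -0.372 for *Ifit1*). Without corticosterone mouse 7 or vehicle mouse 1, that of *Isg15* was larger in size. *Isg15* and *Ifit1* thus had estimates of opposite sign, neither of them past the test.

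*Ifit3* (ENSMUSG00000074896, chr19:34583531-34588731, plus strand) shares 31.6% of the 100-base windows of its transcripts with *Ifit3b*, a near copy, so its count depends on how the counting treated such reads. *Ifit3* measured 4.0, 4.14, 3.58 and 4.48 CPM in vehicle mice and 3.87, 5.27, 3.18 and 4.32 CPM in corticosterone mice. Both the highest and the lowest mouse, 6 and 7, had received corticosterone, and the log2 fold change was 0.04 (SE 0.170, edgeR adjusted p value 0.942). With the reads of *Ifit3* and *Ifit3b* summed, an alternative chosen after seeing the data, it was 0.0095 (edgeR adjusted p value 0.981).

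*Bst2* (ENSMUSG00000046718, chr8:71534255-71537456, minus strand) measured 1.79, 2.05, 2.20 and 1.03 CPM in vehicle mice and 2.39, 1.25, 1.32 and 2.09 CPM in corticosterone mice. Its values fell on both sides in both groups, with vehicle mouse 4 and corticosterone mice 6 and 7 low and the other 5 mice between 1.79 and 2.39 CPM. The log2 fold change of *Bst2* was 0.0019 (SE 0.285, edgeR adjusted p value 0.998) and -0.18 without mouse 5 (adjusted p value 0.727). *Bst2* varied most of the 9 genes, with a coefficient of variation of 29.3% in vehicle and 32.2% in corticosterone mice, where counting error alone gives 17.0% and 17.3%.

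**Figure D1:**
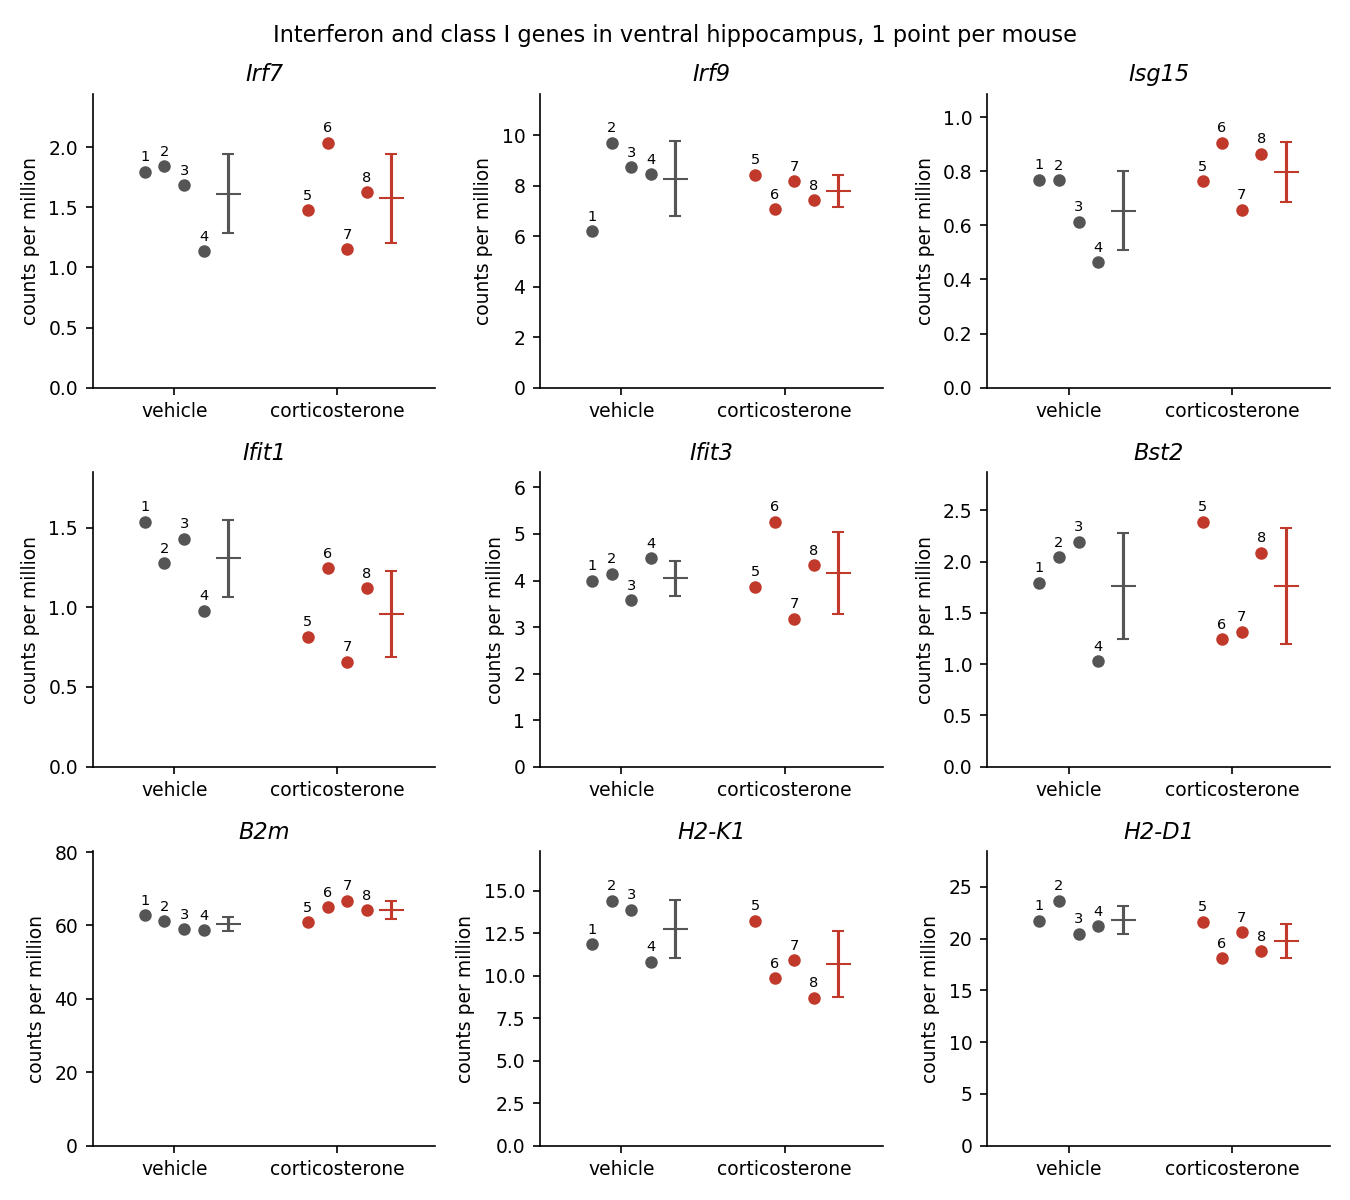
CPM of each of the 9 genes (vertical axes from 0, different for each gene) in the 4 vehicle mice (grey) and the 4 corticosterone mice (red), with the mouse number at each point and the mean ± SD beside the points. The groups overlap for every gene, also for *B2m*, where mice 6 to 8 lie above all vehicle mice and mouse 5 does not.

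MHC class I molecules consist of a heavy chain, encoded here by *H2-K1* and *H2-D1*, and the invariant light chain beta-2-microglobulin, encoded by *B2m*. *B2m* (ENSMUSG00000060802, chr2:122147686-122153083, plus strand) was the best measured of the 9 genes, with 1138 to 1262 reads per library. It measured 62.8, 61.1, 58.9 and 58.7 CPM in vehicle mice and 60.9, 64.9, 66.8 and 64.2 CPM in corticosterone mice. Mice 6 to 8 were above every vehicle mouse, and mouse 5 lay inside the vehicle range. The means were 60.4 ± 1.94 and 64.2 ± 2.45 CPM (SD, n = 4 each), and the log2 fold change was 0.09 (SE 0.065, edgeR adjusted p value 0.623). Leaving out mouse 5 gave 0.11 (adjusted p value 0.242).

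*H2-K1* (ENSMUSG00000061232, chr17:33996017-34000347, minus strand) measured 11.8, 14.4, 13.9 and 10.8 CPM in vehicle mice and 13.2, 9.86, 10.9 and 8.70 CPM in corticosterone mice. Mice 6 and 8 were below every vehicle mouse, mouse 7 was just above the lowest of them, and mouse 5 was inside the vehicle range. The means were 12.7 ± 1.70 and 10.7 ± 1.93 CPM (SD, n = 4 each), and the log2 fold change was -0.25 (SE 0.142, edgeR adjusted p value 0.557). Without mouse 5 the log2 fold change of *H2-K1* was -0.38, with an unadjusted edgeR p value of 0.0114 and an adjusted one of 0.0747. It was then the 1 gene of the 9 with an unadjusted p value under 0.05, where 29% of all genes had one.

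*H2-D1* (ENSMUSG00000073411, chr17:35262730-35267499, plus strand) measured 21.7, 23.7, 20.5 and 21.2 CPM in vehicle mice and 21.6, 18.1, 20.6 and 18.8 CPM in corticosterone mice. As for *H2-K1*, mice 6 and 8 were below every vehicle mouse and mice 5 and 7 were not. The log2 fold change of *H2-D1* was -0.14 (SE 0.092, edgeR adjusted p value 0.60), and -0.18 without mouse 5 (adjusted p value 0.197). Class I genes are near copies of each other, and 3.59% of the 100-base windows of *H2-D1* and 0.957% of those of *H2-K1* occur in transcripts of other genes.

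The exact permutation test over the 70 assignments of 4 against 4 mice, two-sided on log2 CPM, can give a p value no smaller than 0.0286. It gave 0.0857 for *B2m*, 0.114 for *Ifit1*, 0.171 for both *H2-K1* and *H2-D1*, and 0.2 to 1 for the other 5 genes.

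The precision of each estimate limits what these data can say. The 95% confidence interval of the fold change, as corticosterone over vehicle, was narrowest for *B2m*, at 0.965 to 1.17. For *H2-D1* it was 0.792 to 1.04 and for *H2-K1* 0.677 to 1.04. It was 0.759 to 1.17 for *Irf9* and 0.795 to 1.32 for *Ifit3*. The genes with the fewest reads had wider intervals, at 0.674 to 1.41 for *Irf7*, 0.654 to 1.53 for *Bst2*, 0.793 to 1.87 for *Isg15* and 0.489 to 1.10 for *Ifit1*. Only the interval of *Ifit1* reached a 2-fold change. A p value that misses the threshold does not show that the groups were alike. The median log2 fold change was -0.04 over the 9 genes (5 lower, 4 higher) and 0.0036 over all genes tested, and without mouse 5 it was -0.13 against 0.0041.

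**Figure D2:**
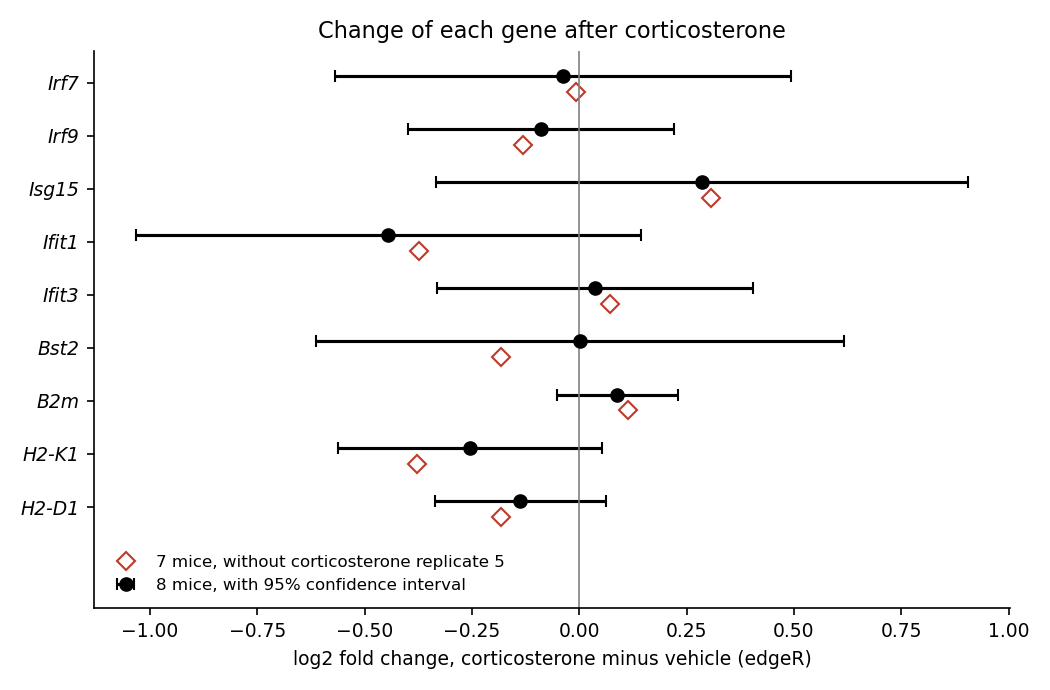
Log2 fold change of each gene, corticosterone minus vehicle, from edgeR over 8 mice (black, with the 95% confidence interval) and over 7 mice without corticosterone mouse 5 (red diamonds). All 9 intervals include 0, and leaving out mouse 5 moved *H2-K1* from -0.25 to -0.38 and *Bst2* from 0.0019 to -0.18.

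Levels between genes were compared per length, as CPM per kilobase of merged exons (FPKM), over all 8 mice. *B2m* was highest, at 72.4 ± 3.36 FPKM (SD, n = 8), followed by *H2-D1* at 8.06 ± 0.678 and *H2-K1* at 3.99 ± 0.685. *Ifit3* (2.35 ± 0.359), *Bst2* (1.95 ± 0.557), *Irf9* (1.49 ± 0.202) and *Isg15* (0.960 ± 0.189) followed in that order. *Ifit1* and *Irf7* were lowest, at 0.427 ± 0.114 and 0.422 ± 0.0855 FPKM. The merged exons of *Irf7* cover its whole span of 3776 bases, introns of its shorter transcripts included, so that its level per length and its place in this order depend on that length. Merged exons of the other genes may also hold bases that some transcripts lack. The same limit then holds for their levels per length and for the heavy chain percentages below. The ranges over mice did not overlap between *B2m* and *H2-D1*, between *H2-D1* and *H2-K1*, or between *Isg15* and *Ifit1*. Each other pair of neighbours in this order overlapped, as *H2-K1* (2.96 to 4.91 FPKM) did with *Ifit3* (1.82 to 3.02 FPKM). The light chain transcript was thus far above either classical heavy chain per length in every mouse.

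The heavy chain level per length as a percentage of that of *B2m* was computed after the values above had been seen and is given with no test. For *H2-K1* it was 5.52, 6.91, 6.90 and 5.40% in vehicle mice and 6.36, 4.44, 4.79 and 3.97% in corticosterone mice. For *H2-D1* it was 11.6, 12.9, 11.6 and 12% in vehicle mice and 11.8, 9.31, 10.3 and 9.75% in corticosterone mice. In both, mice 6 to 8 were below every vehicle mouse and mouse 5 was within the vehicle range. The sum of the 3 class I genes, by contrast, spanned 90.7 to 99.2 CPM in vehicle and 91.7 to 98.3 CPM in corticosterone mice.

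Summed markers of other cell types are given beside these values. The 18 microglial markers, among them *Csf1r* and *Ctss*, summed to 660 to 690 CPM in vehicle mice and 532 to 675 CPM in corticosterone mice, and 17 of the 18 had lower estimates after corticosterone. None of the 18 passed the adjusted threshold of edgeR, and 6 had an unadjusted p value under 0.05, or 33.3% against 9.03% of all genes. DESeq2 called 1 of them lower, *Cx3cr1* (DESeq2 adjusted p value 0.000264), named after its values were seen. Without mouse 5 edgeR called 7 of the 18, all lower, or 38.9% against 10.2% of all genes. In percent of the vehicle mean the microglial sum was 100.3, 79.1, 80.6 and 90.4% in mice 5 to 8, where *H2-K1* was at 104, 77.3, 85.7 and 68.3% and *H2-D1* at 99.3, 83.3, 94.8 and 86.2%. *B2m* was at 101, 108, 111 and 106% in the same mice. Of these 4 mice, mouse 5 was highest in the microglial sum and in both heavy chain genes. Mouse 6 was lowest in the microglial sum and in *H2-D1*, and mouse 8 was lowest in *H2-K1*. The 15 endothelial markers, among them *Flt1*, *Slco1c1* and *Ly6c1*, summed to 241 to 250 CPM in vehicle and 206 to 234 CPM in corticosterone mice, groups that did not overlap, with mouse 5 the lowest. Of these 15, 14 had lower estimates and 4 had an unadjusted p value under 0.05, or 26.7% against 9.03% of all genes. None of the 15 passed the adjusted threshold of edgeR over 8 mice. Without mouse 5, 1 did, lower (6.67%, against 10.2% of all genes). In other lists all 10 oligodendrocyte markers tested had lower estimates. Of these, 4 had an unadjusted p value under 0.05 (40%, against 9.03% of all genes). Without mouse 5, 3 were called (30%, against 10.2% of all genes). All 5 erythrocyte markers tested also had lower estimates, and 1 had an unadjusted p value under 0.05 (20%). The erythrocyte sum was 263 CPM in vehicle mouse 2, 83.3 to 108 CPM in the other vehicle mice and 80.8 to 105 CPM in corticosterone mice. Estimates were higher for 7 of 8 pericyte and smooth muscle markers, of which 3 (2 higher, 1 lower) had an unadjusted p value under 0.05, or 37.5%, and for 4 of 4 choroid plexus markers, and 0 of these 4 lists' markers passed the adjusted threshold of edgeR over 8 mice. Of 10 astrocyte markers, 3 had an unadjusted p value under 0.05 (1 higher, 2 lower), or 30% against 9.03% of all genes. The same number had groups that did not overlap (30% against 3.66% of all genes). Of these 10, edgeR called 0 and DESeq2 called 1 higher and 1 lower, where DESeq2 called 0.374% of all genes. Of 16 neuronal markers, 3 had an unadjusted p value under 0.05, all lower (18.75%, against 9.03% of all genes). Of these 16, edgeR called 0 over 8 mice and 2 without mouse 5 (12.5%, against 10.2% of all genes). The part of these cell types in the values of the class I genes was not tested.

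**Figure D3:**
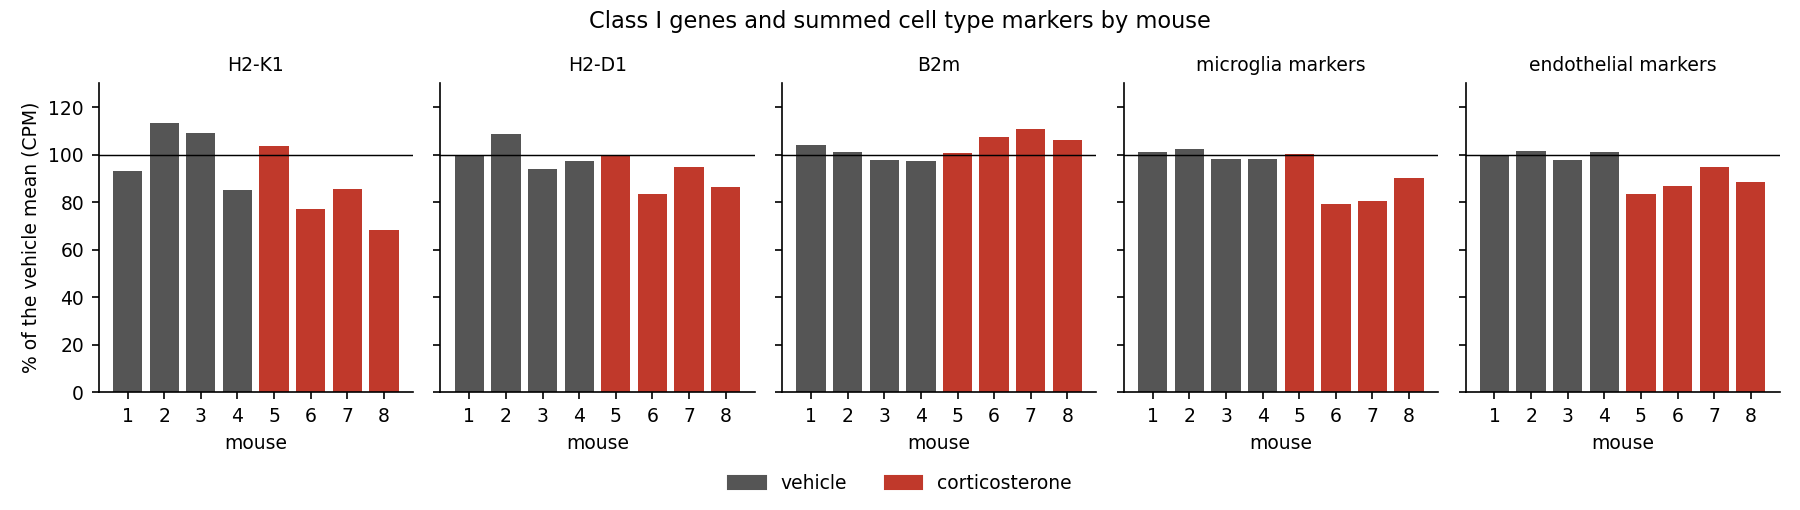
Level of *H2-K1*, *H2-D1* and *B2m* and the summed level of microglial and endothelial markers in each mouse, as a percentage of the mean of the 4 vehicle mice (CPM; bars from 0, line at 100; grey vehicle, red corticosterone). Mice 6 to 8 are at 68.3 to 85.7% in *H2-K1*, where vehicle mouse 4 is at 84.9%, at 83.3 to 94.8% in *H2-D1*, where vehicle mouse 3 is at 94.1%, at 79.1 to 90.4% in the microglial sum and at 106 to 111% in *B2m*, while mouse 5 is at 99.3 to 104% in all but the endothelial panel.

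Leukocytes of the blood gave little signal. The 12 markers of T and NK cells summed to 1.08 to 2.15 CPM in vehicle and 1.37 to 2.15 CPM in corticosterone mice, or 21 to 42 reads, and 3 of them had no read. The 10 markers of monocytes and neutrophils summed to 3.88 to 6.55 and 4.58 to 5.34 CPM. Perivascular macrophage markers summed to 17.6 to 23.2 CPM and 15.0 to 22.5 CPM. These 3 sums overlapped between the groups.

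Mice with more *Irf7* also had more *Isg15* and *Ifit1*, by values that did not pass the adjusted threshold. Over the 8 mice, on log2 CPM, Pearson's r with *Irf7* was 0.77 for *Ifit1* (exact permutation p = 0.0275) and 0.74 for *Isg15* (exact permutation p = 0.0322). Adjusted over the 8 relations with *Irf7*, both exact permutation p values were 0.129, so neither passed. Spearman's rho was 0.71 for each (exact permutation p = 0.0576, adjusted 0.230). *Ifit3* (r = 0.48) and *Bst2* (r = 0.43) followed. For *Irf9* r was -0.28, for *H2-D1* -0.16, for *B2m* 0.08 and for *H2-K1* 0.11. The adjusted exact permutation p values of these 6 genes were 0.577 to 0.846.

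Leaving out the 2 mice farthest from the median of *Irf7*, vehicle mouse 4 and corticosterone mouse 7, r fell to 0.36 for *Isg15* and 0.64 for *Ifit1*, and for *Bst2* it turned to -0.88. Those 2 mice were the lowest in *Irf7*, so that its range was narrower without them. When the values were centred within each group, and permuted within groups over 576 permutations, r was 0.92 for both *Isg15* and *Ifit1* (exact permutation p = 0.00347 and 0.00694, both 0.0278 adjusted). The centred Spearman's rho was 0.83 and 0.76 (adjusted exact permutation p = 0.0556 and 0.118), and the centred r without the same 2 mice was 0.69 and 0.73. Centring thus put both Pearson values past the threshold and neither rank correlation. These are genes with 9 to 36 reads per library. Their spread was close to that of counting for *Irf7* and *Ifit1*, and below it for *Isg15*. The coefficient of variation was 22.3% in vehicle and 13.9% in corticosterone mice for *Isg15*, where counting error alone gives 28.0% and 25.8%. It was 18.6% and 28.2% for *Ifit1*, against 19.8% and 23.6% from counting, and 20.2% and 23.4% for *Irf7*, against 17.8% and 18.4%.

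Other genes were closer to *Irf7* across the same 8 mice. The 5 with the highest r were *Grip1* (0.95), *Lppos* (0.95), *Sfrp2* (0.93), *Fars2* (0.93) and *Zfyve19* (0.93). Among 16017 genes *Ifit1* ranked 110 and *Isg15* 149, followed by *Ifit3* at 1090 and *Bst2* at 1488. The ranks are given as a description.

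**Figure D4:**
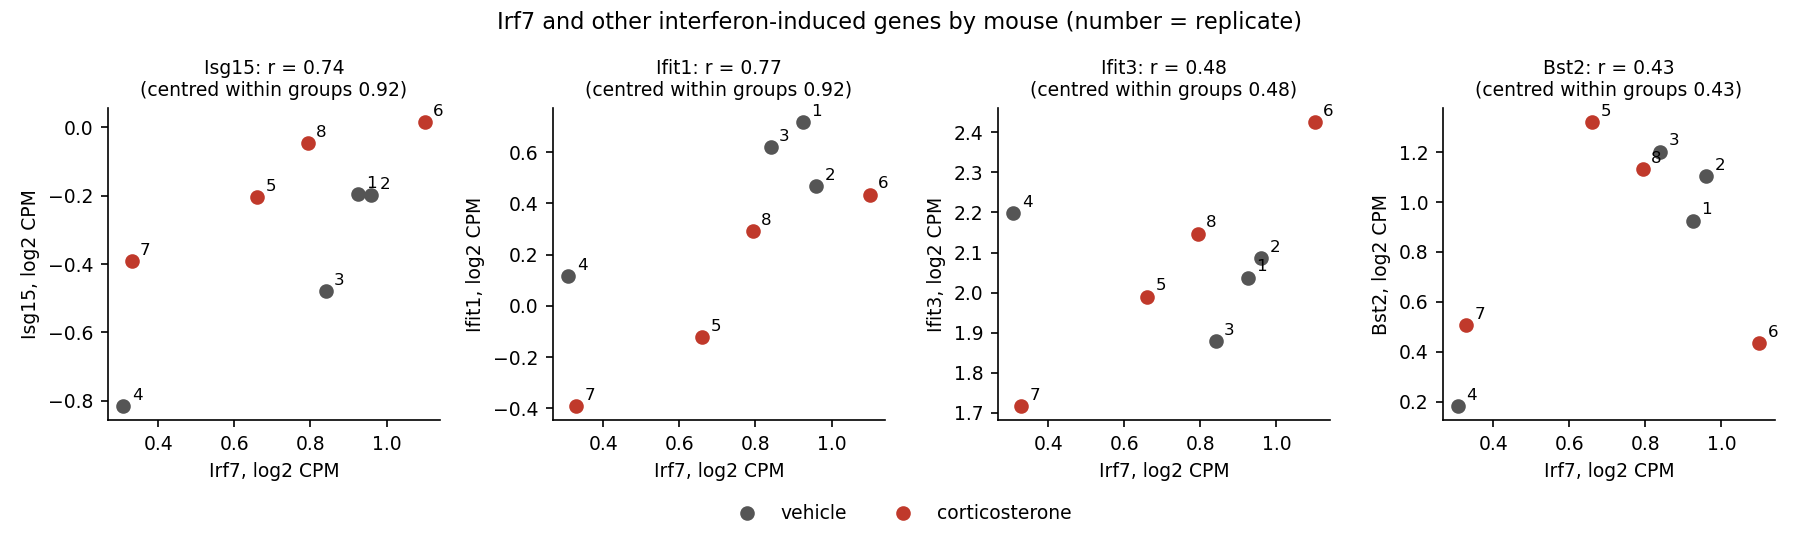
Level of *Isg15*, *Ifit1*, *Ifit3* and *Bst2* against that of *Irf7* in each mouse (log2 CPM on both axes; grey vehicle, red corticosterone, number = mouse). Vehicle mouse 4 and corticosterone mouse 7 are lowest in *Irf7*. For *Isg15* and *Ifit1* r is 0.74 and 0.77 over all mice and 0.92 for both after centring within groups.

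The rest of the pathway was covered by lists of 179 other genes, of which 122 had enough reads to be tested and 23 had no read. None of the 122 passed the adjusted threshold of edgeR or of DESeq2. An unadjusted p value under 0.05 was found for 12 of them (4 higher, 8 lower), or 9.84% against 9.03% of all genes. The groups did not overlap for 4 (2 higher, 2 lower), or 3.28% against 3.66% of all genes. The median log2 fold change over the 122 was -0.0036, with 61 higher and 61 lower. Without mouse 5, 6 of 124 passed (4.84%, against 10.2% of all genes), and the limit given above for leaving out mouse 5 holds for each of them.

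The ligands were at the floor of detection. Of 21 interferon genes listed, 20 had no read in any library and the other, *Ifnz*, had 1 read in corticosterone mouse 5. A count of 0 allows a level of up to 3 reads, which is 0.153 to 0.170 CPM in these libraries, counting error only.

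Of 17 receptor and JAK-STAT genes, 15 were tested. *Ifngr1*, the ligand-binding chain of the interferon-gamma receptor, averaged 15.5 ± 0.821 CPM in vehicle and 19.2 ± 1.17 CPM in corticosterone mice (SD, n = 4 each), with no overlap between groups and a log2 fold change of 0.31 (SE 0.089, edgeR adjusted p value 0.414). *Ifngr2*, the other chain of that receptor, averaged 86.1 ± 3.74 and 77.0 ± 3.87 CPM, also with no overlap and in the opposite direction (log2 fold change -0.16, edgeR adjusted p value 0.536). The kinase gene *Jak1* had the highest level per length of this list (31.8 FPKM) and a log2 fold change of 0.08 (edgeR adjusted p value 0.677). Without mouse 5 *Ifngr1* passed the test (0.32, edgeR adjusted p value 0.0414), as did the inhibitor gene *Pias1* (0.25, 0.0409) and the phosphatase gene *Ptpn6* (-0.89, 0.0383).

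Among the interferon regulatory factors other than the 2 members, *Irf8*, which microglia need, averaged 3.54 ± 0.538 CPM in vehicle and 2.58 ± 0.300 CPM in corticosterone mice (log2 fold change -0.45, edgeR adjusted p value 0.512). *Irf3*, the factor that acts downstream of nucleic acid sensors, averaged 14.9 ± 1.93 and 12 ± 2.08 CPM (log2 fold change -0.31, edgeR adjusted p value 0.545), and passed without mouse 5 (-0.43, adjusted p value 0.0411). *Irf3* overlaps 88 exon bases of *Bcl2l12* on the opposite strand.

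Of the sensors, *Tlr7*, an endosomal receptor for single-stranded RNA, had the smallest edgeR p value of the pathway lists. *Tlr7* measured 5.85, 2.76, 3.01 and 2.78 CPM in vehicle mice and 4.63, 7.48, 7.08 and 7.89 CPM in corticosterone mice. Vehicle mouse 1 stood above the other vehicle mice and above corticosterone mouse 5, and the remaining mice were separate by group. Over all mice the log2 fold change was 0.91 (SE 0.248, edgeR adjusted p value 0.363). It was 1.24 (edgeR adjusted p value 0.0440) without vehicle mouse 1, 1.05 (0.0179) without corticosterone mouse 5, and 0.91 (0.0225) when genes with few reads were not removed before the fit. In the same order these fits called 19, 1651 and 79 of all genes. Vehicle mouse 1 was the highest and corticosterone mouse 5 the lowest of its group in *Tlr7*, so leaving either out widens the difference. No other fit with 1 library left out called *Tlr7*, and DESeq2 over 8 mice did not (DESeq2 adjusted p value 0.0859). *Sting1*, the adaptor of cytosolic DNA sensing, averaged 3.77 ± 0.775 and 1.96 ± 1.17 CPM (log2 fold change -0.93, edgeR adjusted p value 0.499). The kinase gene *Tbk1* was the highest of the sensor list per length (11.2 FPKM; log2 fold change 0.13, edgeR adjusted p value 0.564).

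Other interferon-stimulated genes were the largest list, with 49 of 65 tested, 1 higher and 1 lower at an unadjusted p value under 0.05 (4.08%, against 9.03% of all genes) and a median log2 fold change of -0.02. The helicase gene *Znfx1* averaged 52.9 ± 1.73 and 62.3 ± 4.13 CPM with no overlap (log2 fold change 0.24, edgeR adjusted p value 0.439), and 82 of its exon bases overlap *Zfas1* on the opposite strand. The guanylate-binding protein gene *Gbp5* averaged 1.38 ± 0.573 and 0.821 ± 0.206 CPM (-0.75, edgeR adjusted p value 0.545). *Ly6e* was the highest per length at 67.3 FPKM (-0.17, edgeR adjusted p value 0.585).

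For class I presentation, 0 of the 10 other class I chains tested and 2 of 19 genes of peptide loading and the immunoproteasome, both lower, had an unadjusted p value under 0.05, the latter 10.5% against 9.03% of all genes. *Psmb8*, a catalytic subunit of the immunoproteasome, averaged 2.16 ± 0.280 and 1.41 ± 0.514 CPM (log2 fold change -0.62, edgeR adjusted p value 0.545), and *Rfxank*, a subunit of the factor that binds MHC promoters, 12.4 ± 0.900 and 10.3 ± 1.0 CPM (-0.26, edgeR adjusted p value 0.537). Both overlap a gene on the opposite strand, *Psmb8* by 498 exon bases with *Gm20496* and *Rfxank* by 1341 with *Nr2c2ap*. The chaperone gene *Calr* was the highest of this list per length (143 FPKM; log2 fold change 0.04, edgeR adjusted p value 0.833), and *Fcgrt*, the neonatal Fc receptor, of the other class I chains (6.64 FPKM; -0.07, edgeR adjusted p value 0.797). *H2-T22* and *H2-T24*, which had the smallest p values of those chains, had log2 fold changes of -0.14 and -0.46 (edgeR adjusted p values 0.615 and 0.630). The oxidoreductase gene *Pdia3* of the loading complex passed without mouse 5 (0.28, edgeR adjusted p value 0.0361).

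The class II chain genes *H2-Aa* and *H2-Ab1* had few reads. *H2-Aa*, an alpha chain, measured 0.308, 1.07, 0.306 and 0.258 CPM in vehicle mice and 1.32, 1.25, 0.768 and 1.42 CPM in corticosterone mice. Vehicle mouse 2 stood among the corticosterone mice, and the log2 fold change was 1.28 (SE 0.425, edgeR adjusted p value 0.476). *H2-Ab1*, a class II beta chain, averaged 0.461 ± 0.371 and 0.916 ± 0.201 CPM (0.98, edgeR adjusted p value 0.545). The protease gene *Ctss* was the highest of the class II list per length (39.7 FPKM; -0.03, edgeR adjusted p value 0.908). The median of the 8 class II genes tested was 0.36, against 0.0036 over all genes, and 0 of them passed the test.

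**Figure D5:**
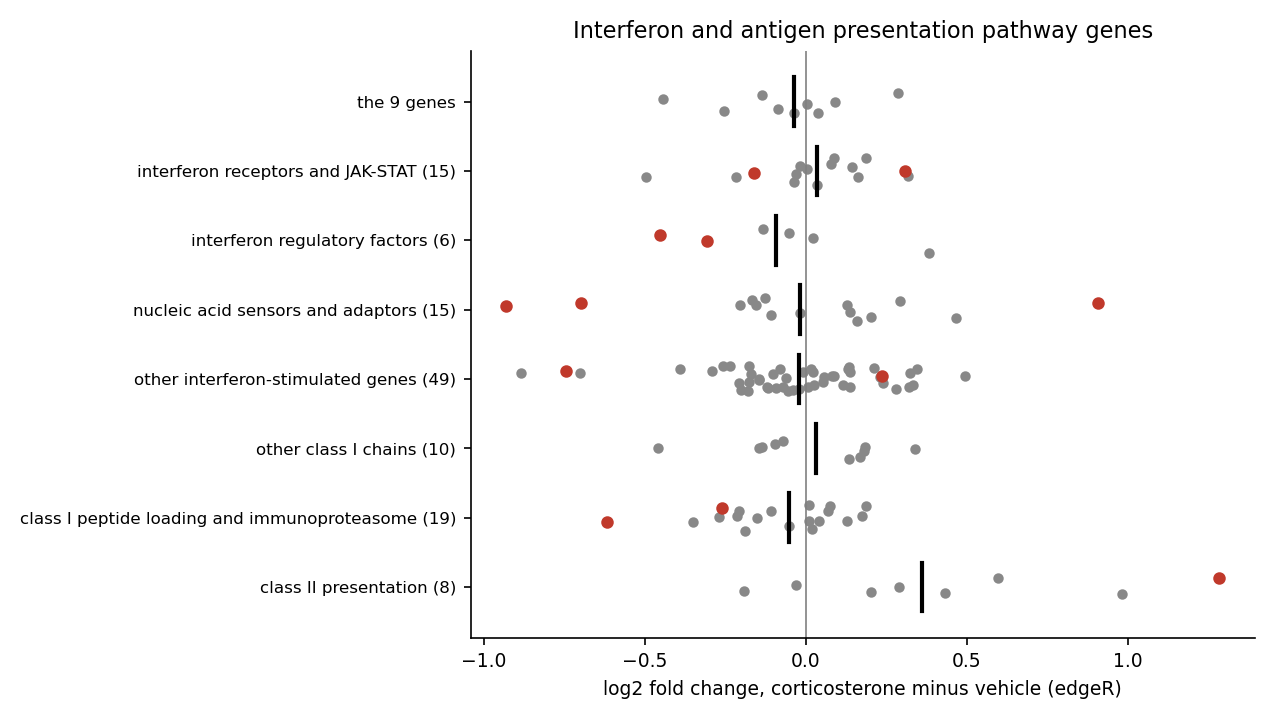
Log2 fold change (edgeR, corticosterone minus vehicle) of every tested gene of the 9 and of each pathway list, with the number tested in brackets; black bars are medians and red points have an unadjusted p value under 0.05. No point passed the adjusted threshold, the 9 genes lie between -0.44 and 0.29, and the class II list has the highest median (0.36).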

How the data were processed

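RNA was extracted with the NucleoSpin RNA kit from the ventral hippocampus of 8 mice, and stranded mRNA libraries were sequenced as 100-base paired reads on DNBseq. The authors aligned reads to mm10 with GSnap, obtained reads per gene from HTSeq-count (0.6.0) and deposited the raw counts, without normalization. Their own test was DESeq2 1.29.4. The annotation release and strand setting are not given in the sources used here, and no batch is named. Reads of overlapping exons or near copies may be lost or split. Symbols and coordinates came from GENCODE M21 (50376 of 50686 identifiers matched). The 5 summary rows were left out, and 27483 genes had a read.

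Counts were normalized with TMM and tested with edgeR 4.0.16 (filterByExpr, quasi-likelihood test, R 4.3.3), corticosterone against vehicle, Benjamini-Hochberg adjusted over all 16018 genes kept, with a threshold of 0.05. Log2 values used a prior count of 2. Alternatives were DESeq2 1.42.0, limma-voom (limma 3.58.1), other normalizations and filters, and each library left out. Permutation tests used scipy 1.17.1. The scripts were tested on simulated data. From each list the 2 genes with the smallest p value and the highest per length were named, with any gene past the threshold, and the 3 marker genes with the most reads, 1 of which is not reported here. The members and lists were chosen with earlier results of these data known.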

Additional observations from a re-analysis of the deposited data

Results flagged for a closer look

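Groups of 4 mice were searched for 1 mouse far from the other 3 (Dixon's criterion). Of 114 sets of 4 values examined, 8 had such a mouse, where chance gives about 5.7, and none concerned the 9 genes. In the pathway lists these were *Tlr7* in vehicle mouse 1 (5.85 CPM, others 2.76 to 3.01) and *H2-Aa* in vehicle mouse 2 (1.07 CPM, others 0.258 to 0.308). Vehicle mouse 2 was also high in the haemoglobin gene *Hbb-bs* (78.7 CPM, others 26.2 to 28.9) and in the pericyte gene *Pdgfrb* (15.8 CPM, others 12.6 to 13.1). Corticosterone mouse 5 was high in *Mbp* of oligodendrocytes (1514 CPM, others 949.9 to 1006), *Aldoc* of astrocytes (1021 CPM, others 828 to 841) and *Slc17a7* of glutamatergic neurons (1885 CPM, others 1455 to 1484). Corticosterone mouse 7 was high in the endothelial gene *Flt1* (39.4 CPM, others 35.3 to 35.7).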

How the results depend on the processing

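The count of the 9 genes past the threshold was 0 under all 14 alternatives, of which the minimum of 10 reads per library left 8 of the 9 in the test, without *Isg15*. Over all genes the count moved from 1 to 63 with DESeq2, 79 with no filter on low counts and 0 with a minimum of 10 reads per library, and from 0 to 1651 when 1 library was left out (19 without vehicle mouse 1, 1651 without corticosterone mouse 5, 0 otherwise). For the other pathway genes it was 0, 1 with no filter, and 0 to 6 with 1 library left out (1 without vehicle mouse 1, 6 without corticosterone mouse 5). The causes were not tested. Of the log2 fold changes of single members, 116 kept their direction and their side of the threshold and 10 changed sign. *Bst2* was -0.0023 with DESeq2, -0.00037 with DESeq2 size factors in edgeR, and -0.19 to 0.13 with 1 library left out. *Irf7* then spanned -0.18 to 0.082 and *Ifit3* -0.093 to 0.14. *H2-K1* stayed negative at -0.38 to -0.17 (edgeR adjusted p value 0.0747 to 0.919). *Irf9* was -0.21 without vehicle mouse 1 and -0.0019 without vehicle mouse 2, and *Isg15* was 0.15 without vehicle mouse 4. Centring within groups moved the correlations with *Irf7* past the threshold from 0 to 2 of 8, those of *Isg15* and *Ifit1*, at r = 0.92 (0.915 for *Ifit1*). With 1 library left out r with *Irf7* spanned -0.34 to 0.66 for *B2m*, -0.054 to 0.37 for *H2-K1* and -0.49 to 0.24 for *H2-D1*. It spanned 0.55 to 0.83 for *Isg15*, 0.63 to 0.85 for *Ifit1*, 0.17 (without corticosterone mouse 7) to 0.83 (without vehicle mouse 4) for *Ifit3*, and 0.062 (without vehicle mouse 4) to 0.79 (without corticosterone mouse 6) for *Bst2*. Reads limit *Isg15*, *Ifit1* and *Irf7* most. The labels give no pairing of mice between the groups, and no paired analysis was made. The paper states that mice were group-housed, and the labels do not say which mice shared a cage. The labels also do not say how tissue was taken or handled. The p values weigh the difference between groups against the spread between these mice.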
